A study of Mus musculus with 6 samples.

Results

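Toll-like receptors are pattern recognition receptors of innate immunity that bind conserved parts of microbes, at the cell surface or in endosomes. Bound receptors recruit adaptors that share the TIR domain, Myd88 and Ticam1 in particular, which pass the signal through IRAK kinases, Traf6 and the Map3k7 kinase complex to NF-kB, or through Tbk1 to interferon regulatory factors. In blood, monocytes, macrophages and dendritic cells are best known for them. The 35 genes described here were listed by role and comprised 12 receptors, 6 co-receptors and accessory proteins, 4 adaptors, 8 kinases and kinase partners, 2 ubiquitin ligases of the TRAF family and 3 inhibitors. A gene was measured if a probe set of the array was assigned to that gene alone. This held for 31 of the 35 genes, each with 1 such probe set, out of 19938 genes measured in all. Tlr5, Tlr11, Irak4 and Traf3 were not analysed here.

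C1498 is a mouse leukemia cell line from C57BL/6J that the labels call acute myeloid leukemia. The cells were given PJ34, an inhibitor of PARP-1, at 20 μM, or PBS as control, and both groups were collected after 48 h, with 3 Affymetrix arrays per group. The study describes its microarray experiments as independent, while the labels do not say whether the arrays came from separate cultures. The p-values measure the spread between these arrays. The values were log2 expression values, and the 6 array medians over 35556 probe sets lay between 4.41 and 4.46. Arrays of a group correlated at 0.992 to 0.995, and arrays of different groups at 0.992 to 0.994. The 12 listed markers of myeloid progenitors had mean log2 values of 2.74 to 4.86 (percentiles 19.7 to 56.5 of the probe sets), with Mpo and Elane at 3.81 and 3.56. The 15 listed markers of T and NK cells had mean log2 values of 1.86 to 11.1, with a median of 4.32. Among subunits of the T cell receptor complex, Cd3g and Cd3e were at 11.1 and 10.5, and Cd3d and Cd247 at 4.76 and 4.0. No detection calls were used, and probe sets differ in how strongly they bind, so levels set against those of other genes are only a rough description. To describe the level of probe sets with little or no transcript, the 1027 measured olfactory receptor genes were used, whose 95th percentile was a mean log2 value of 3.82. Of the 12 myeloid progenitor markers, 7 did not exceed this value. Elane was among them, and so, narrowly, was Mpo (3.813 against 3.820). The other 5, Cebpa (4.86), Csf2ra (4.72), Kit (4.11), Prtn3 (4.02) and Flt3 (3.93), lay above it. Of the members, 20 of the 31 genes lay above this value and 11 did not. Of all 19938 genes 13052 lay above it, as did 4 of 7 listed stromal markers, Col1a1 at 5.22 among them. Lying above it therefore does not by itself show that a gene was expressed.

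With PJ34, Ly96 rose and none of the other 30 genes passed limma's test at an adjusted p under 0.05. The call of Ly96 was lost under 8 of 12 other settings, given below. Ly96, which encodes the LPS-binding protein that sits on Tlr4, was 1.50-fold higher (95% confidence interval 1.28 to 1.77). The share of members called, 3.23%, lay near the background, since 3.06% of the 23410 probe sets tested were called (1.72% higher and 1.34% lower), and 3.14% of the 19938 genes. The median log2 fold change was 0.05 over the 31 genes and 0.0044 over all 19938 genes. Sigirr, an inhibitory receptor of the pathway, was 0.77-fold (0.67 to 0.88) and missed the threshold (adjusted p = 0.0557 from limma). Cd14, the co-receptor that hands LPS to Tlr4, was 1.27-fold (1.03 to 1.56) and did not pass (adjusted p = 0.223 from limma). Of the 31 genes, only these 3 had an unadjusted limma p under 0.05, 9.68% of the members against 16.7% of all measured genes. For bulk RNA such as this, more transcript per cell and more cells with the transcript cannot be told apart.

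**Figure D1:**
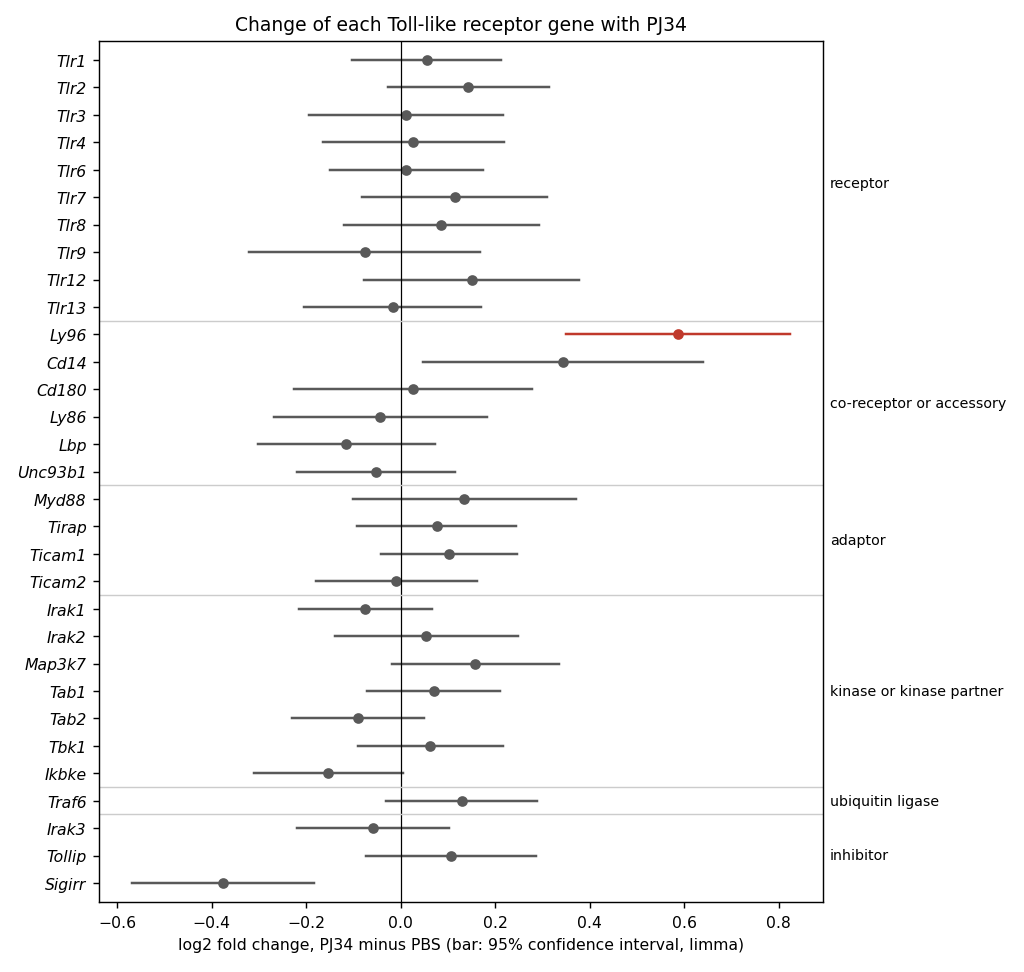
Change with PJ34 (horizontal axis, log2 fold change against PBS) of the 31 measured genes, 1 row per gene, grouped by role. Points are estimates, bars are 95% confidence intervals from limma with 3 arrays per group, and red marks the gene that passed. Ly96 lies alone to the right at 0.59, Sigirr lies farthest to the left at -0.38, and apart from Cd14 the intervals of the other genes include 0.

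None of the 10 measured receptors passed the test. Their log2 fold changes ran from -0.08 to 0.15, their adjusted p from 0.395 to 0.975 in limma, and the PJ34 and PBS arrays overlapped for each. The 95% confidence intervals reached from 0.80-fold to 1.30-fold, so that a larger change of the probe set signal lay outside the interval of every measured receptor. For probe sets near background this bounds the signal and not the transcript, since a fixed background understates a change. Of the receptors, 7 lay within the range of the olfactory receptors. They were Tlr1 and Tlr6, partners of Tlr2 in the recognition of lipoproteins, Tlr3, a receptor of viral RNA in endosomes, Tlr4, the LPS receptor, the RNA sensors Tlr7 and Tlr8, and Tlr13, which recognises bacterial ribosomal RNA. Their mean log2 values ran from 1.88 for Tlr7 to 3.22 for Tlr6. For Tlr4 the values were 1.90, 2.10 and 2.19 with PBS and 2.06, 2.06 and 2.15 with PJ34. All 3 PJ34 values of Tlr4 thus lay inside the range of the PBS values, and its log2 fold change was 0.03 (SE 0.08).

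The receptors above the olfactory range were Tlr2, Tlr9 and Tlr12. Tlr12, which recognises the profilin of Toxoplasma, had values of 5.36, 5.63 and 5.51 with PBS and of 5.55, 5.83 and 5.57 with PJ34. The groups overlapped, and the log2 fold change was 0.15 (SE 0.10, adjusted p = 0.522 from limma). Tlr2, the receptor of lipoproteins, had values of 4.68, 4.65 and 4.74 with PBS and of 4.84, 4.71 and 4.94 with PJ34. Of its PJ34 values 1 lay among the PBS values, and the log2 fold change was 0.14 (SE 0.08, adjusted p = 0.395 from limma). Tlr9, the receptor of CpG DNA in endosomes, had a mean log2 value of 4.63 ± 0.10 (SD, n = 3) with PBS and 4.56 ± 0.21 (SD, n = 3) with PJ34. Unc93b1, which carries the nucleic acid receptors to endosomes, had means of 4.94 ± 0.09 and 4.89 ± 0.07 (SD, n = 3), a difference within the spread of either group.

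**Figure D2:**
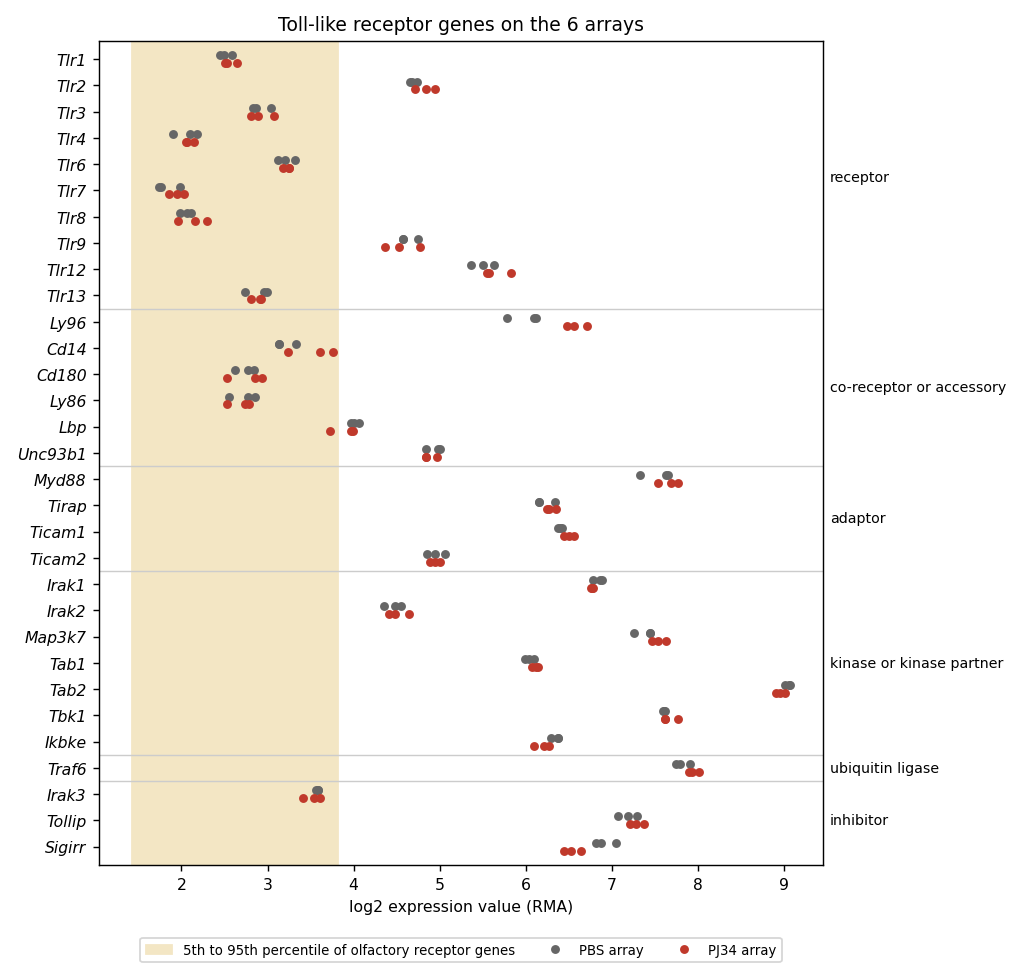
Log2 expression value (horizontal axis) of the 31 measured genes on each of the 3 PBS arrays (grey) and 3 PJ34 arrays (red), 1 row per gene, grouped by role. The shaded band spans the 5th to 95th percentile of the mean values of 1027 olfactory receptor genes (1.43 to 3.82). Of 10 receptors 7 lie in the band, while the adaptors, kinases and Traf6 lie to the right of it.

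The Ly96 probe set read 6.11, 5.79 and 6.09 on the PBS arrays and 6.56, 6.71 and 6.48 on the PJ34 arrays. The lowest PJ34 value lay 0.37 above the highest PBS value on the log2 scale, the widest gap between groups among the 31 genes. The log2 fold change was 0.59 (SE 0.10, adjusted p = 0.0228 from limma). An exact two-sided permutation test gave p = 0.1, the smallest that 3 arrays against 3 allow. When 1 array was left out, Ly96 passed in 1 of 6 fits, the fit without PJ34 replicate 3. Without each of the other arrays (PBS replicate 1, 2 or 3, or PJ34 replicate 1 or 2) its adjusted p from limma lay between 0.052 and 0.0732, and its log2 fold change over the 6 fits ran from 0.48 to 0.64.

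Tlr4 and Cd14, which act with Ly96 in LPS recognition, lay within the range of the olfactory receptors, at mean log2 values of 2.07 and 3.37, while Ly96 lay above it at 6.29. Cd14 had values of 3.33, 3.13 and 3.13 with PBS and of 3.76, 3.24 and 3.61 with PJ34. PJ34 replicate 2 lay below the highest PBS value, and the other PJ34 arrays lay above all PBS values. The log2 fold change of Cd14 was 0.34 (SE 0.13). Without PJ34 replicate 2 it was 0.49 and passed (adjusted p = 0.0452 from limma). Without PJ34 replicate 1 it was 0.23 and did not pass (adjusted p = 0.453 from limma). The adjusted p of Cd14 across settings ranged from 0.0452 to 0.453. Lbp, the serum protein that delivers LPS to Cd14, was at -0.12 on the log2 scale (SE 0.08, limma adjusted p = 0.555). Cd180 and Ly86, a receptor and its bound partner that are related to Tlr4 and Ly96, had log2 fold changes of 0.03 and -0.04 at mean values in the olfactory range (2.76 and 2.71). Whether the change of Ly96 differed from that of its relative Ly86 was not tested.

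**Figure D3:**
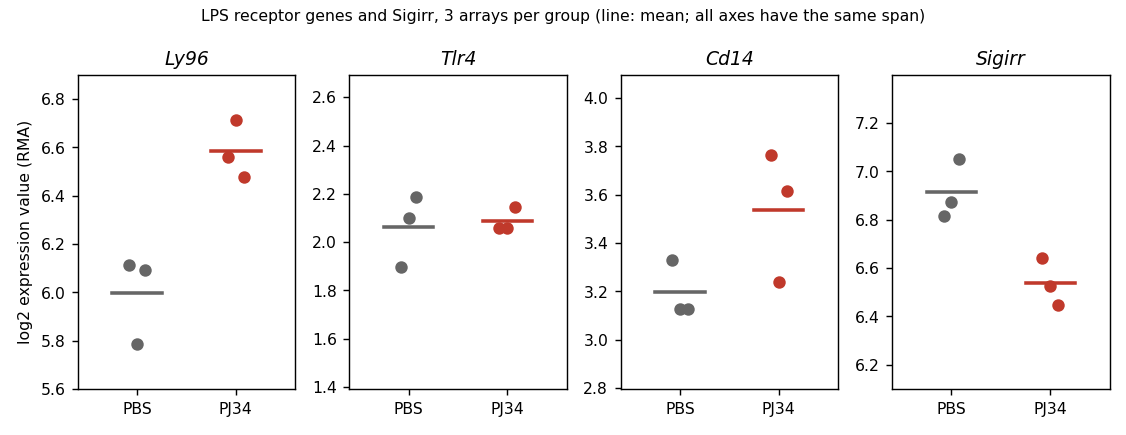
Log2 expression value (vertical axis) of Ly96, Tlr4, Cd14 and Sigirr on the 3 PBS arrays (grey) and the 3 PJ34 arrays (red), with lines at the group means. All 4 axes have the same span. The groups are apart for Ly96 (6.00 and 6.58) and Sigirr (6.91 and 6.54) and overlap for Tlr4 and Cd14.

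Ly96, Cd14 and many receptors are known from monocytes and macrophages, and markers of these cells were therefore read on the same arrays. Of 9 listed markers, Fcgr1, an Fc receptor of IgG, rose (log2 fold change 0.63) and the lysosomal protein Cd68 rose (0.51), and none passed as lower. Over all measured genes, 3.14% passed. The mean over the 9 markers was 3.67 to 3.78 on the PBS arrays and 3.92 to 3.98 on the PJ34 arrays. Itgam was at 0.45 and did not pass (limma adjusted p = 0.116), and Csf1r was at -0.10. The median log2 fold change of the 9 was 0.14, with 8 above 0 and 1 below. In 6 of the 9, among them Csf1r, Adgre1 and Lyz2, which are defining for these cells, the mean log2 value lay within the olfactory range (2.61 to 3.64). Of 15 markers of T and NK cells, Cd4 and Gzma rose and none passed as lower. The 15 log2 fold changes ran from -0.26 for Zap70 (limma adjusted p = 0.064) to 0.90 for Gzma, with 9 above 0 and 6 below. With PBS, Cd4 and Gzma had means of 3.83 and 3.56, close to or within the olfactory range. The mean over the 15 markers was 5.01 to 5.02 with PBS and 5.11 to 5.13 with PJ34. Of 4 megakaryocyte markers, Ppbp rose (log2 fold change 0.30, limma adjusted p = 0.037) at a mean of 2.20, within the olfactory range. None of 8 dendritic cell markers or of 7 B cell markers passed. Nor did any of 12 myeloid progenitor, 3 erythroid, 7 stromal or 6 endothelial markers. The part of these markers in the rise of Ly96 was not tested.

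The adaptors and kinases lay above the olfactory range without exception, and none of them passed the test. Myd88, the adaptor used by nearly all Toll-like receptors, had values of 7.63, 7.32 and 7.65 with PBS and of 7.54, 7.69 and 7.77 with PJ34. PBS replicate 2 was the lowest array, the groups overlapped, and the log2 fold change was 0.13 (SE 0.10, adjusted p = 0.591 from limma). Ticam1, the adaptor of Tlr3 and of the endosomal signal of Tlr4, had values of 6.40, 6.37 and 6.42 with PBS and of 6.56, 6.50 and 6.44 with PJ34. Its groups did not overlap, by a gap of 0.016 on the log2 scale, and the log2 fold change was 0.10 (SE 0.06). Tirap, which bridges Myd88 to Tlr2 and Tlr4, and Ticam2, which bridges Ticam1 to Tlr4, had log2 fold changes of 0.08 and -0.0092. The confidence intervals of the 4 adaptors reached from 0.88-fold to 1.29-fold.

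The 7 measured kinases and kinase partners had log2 fold changes between -0.15 and 0.16, with confidence intervals from 0.81-fold to 1.26-fold. Tab2, which links the kinase Map3k7 to ubiquitin chains, had values of 9.06, 9.06 and 9.01 with PBS and of 8.91, 9.0 and 8.95 with PJ34. The PJ34 values lay below the PBS values by a gap of 0.01, and the log2 fold change was -0.09 (SE 0.06, limma adjusted p = 0.525). Map3k7 itself, also known as TAK1, was at 0.16 on the log2 scale, PJ34 minus PBS (SE 0.08, limma adjusted p = 0.36), with values without overlap, by a gap of 0.016. Ikbke, a kinase of interferon regulatory factors, had values of 6.30, 6.37 and 6.37 with PBS and of 6.27, 6.21 and 6.10 with PJ34. All PJ34 values were below all PBS values by 0.023 or more, and the log2 fold change was -0.15 (SE 0.07, limma adjusted p = 0.317). Its relative Tbk1 had a log2 fold change of 0.06 (SE 0.07). Irak1, a kinase recruited by Myd88, had a log2 fold change of -0.08 (SE 0.06) and a gap between groups of 0.002, and Irak2 and Tab1 had 0.05 and 0.07. Traf6, the ubiquitin ligase downstream of the IRAK kinases, had values of 7.75, 7.79 and 7.91 with PBS and of 7.94, 8.01 and 7.90 with PJ34. Only PJ34 replicate 3 lay below the highest PBS value, and the log2 fold change was 0.13 (SE 0.07, adjusted p = 0.417 from limma).

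Groups without overlap were about as frequent here as over all genes. Among the 31 genes, PJ34 lay wholly above PBS for Ly96, Ticam1 and Map3k7 and wholly below for Sigirr, Ikbke, Irak1 and Tab2. These 7 genes are 22.6% of the members, and 23.0% of all 19938 genes had groups without overlap (12.9% with PJ34 above and 10.1% with PJ34 below). Apart from Ly96 and Sigirr, the gaps of these genes were 0.002 to 0.023.

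Among the inhibitors, the Sigirr probe set read 6.81, 6.87 and 7.05 with PBS and 6.64, 6.52 and 6.45 with PJ34. The groups were apart by 0.17 on the log2 scale, and Sigirr had the lowest fold change of the 31 genes, -0.38 (SE 0.08, adjusted p = 0.0557 from limma). Centring each array on its median (adjusted p = 0.0469), an intensity trend with robust eBayes (0.00858) and leaving out dim probe sets (0.0166) each brought Sigirr past the threshold, and across settings the range was 0.00858 to 0.183. Tollip, an adaptor-binding protein that dampens IRAK signalling, had values of 7.07, 7.19 and 7.29 with PBS and of 7.37, 7.21 and 7.28 with PJ34. These overlapped, and the log2 fold change was 0.11 (SE 0.08). Irak3, an inactive relative of the IRAK kinases that blocks their release from Myd88, lay within the olfactory range at 3.55, and its log2 fold change was -0.06 (SE 0.07).

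**Figure D4:**
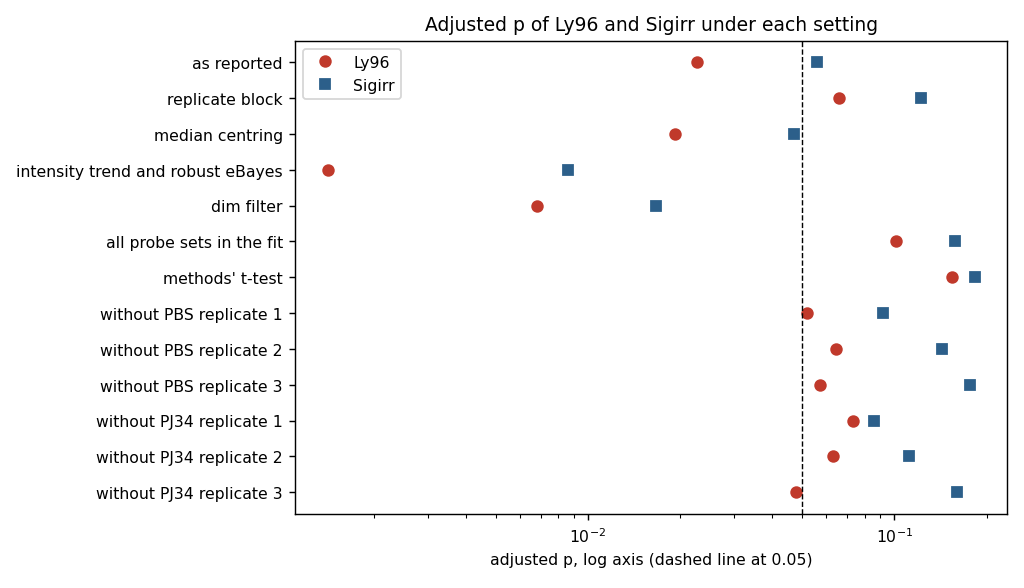
Adjusted p (horizontal log axis) of Ly96 (red circles) and Sigirr (blue squares) as reported and under 12 other settings, 1 row each, with a dashed line at 0.05. Ly96 ranges from 0.00142 to 0.154 and Sigirr from 0.00858 to 0.183, and both cross the line.

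Beyond the receptors and adaptors, 104 other genes of the pathway were measured, from a list of chaperones, downstream kinases, transcription factors, brakes, output genes and other innate receptors. Of these, 5 rose and 1 fell, 5.77% of them against 3.14% of all measured genes. Their median log2 fold change was 0.04, against 0.0044 over all genes. Because the list was chosen with earlier results of these data known, this share was not read as an excess. Of 16 transcription factors and their inhibitors, 3 rose and none fell. Nfkbia, which holds NF-kB in the cytoplasm, rose by 0.52 on the log2 scale (SE 0.06, limma adjusted p = 0.00625), and its values were 7.64, 7.62 and 7.74 with PBS and 8.21, 8.19 and 8.16 with PJ34. The NF-kB subunits Rel and Relb rose by 0.46 (SE 0.08) and 0.38 (SE 0.08), while Rela (0.15) and Nfkb2 (0.17) did not pass. Of 16 brakes, Tnfaip3, a ubiquitin-editing enzyme that ends NF-kB signalling, rose by 0.46 (SE 0.08) and the receptor kinase Axl fell by 0.33 (log2 fold change -0.33, SE 0.07).

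Of 26 output genes, the chemokine Ccl3 alone passed, rising by 0.83 on the log2 scale (SE 0.11, limma adjusted p = 0.00879). Its values were 4.34, 3.93 and 4.14 with PBS and 4.96, 5.12 and 4.84 with PJ34, and the groups were well apart. Tnf (0.20) did not pass, and 17 of the 26 output genes lay within the olfactory range. None of 10 chaperones and endosomal proteins, 19 kinases and ubiquitin enzymes or 17 other receptors and sensors passed. An unadjusted limma p under 0.05 was found for 3 of the 10, 5 of the 19 and 2 of the 17. Over all measured genes the share was 16.7%. Chaperones and kinases lay above that share and the other receptors below it, which was not read as an excess. The largest changes that did not pass were those of the kinase Map3k8 (0.40), Mavs, the adaptor of cytosolic RNA sensors (-0.27), Nfkbiz (0.27), the endosomal transporter Slc15a4 (0.26), and the chemokines Cxcl9 (0.26) and Ccl2 (0.26). In the 6 fits that left out 1 array each, Nfkbia and Ccl3 passed in all 6, Tnfaip3 and Relb in 1 each, and Rel and Axl in none. The highest adjusted p over these fits were 0.0886 for Tnfaip3, 0.165 for Relb, 0.108 for Rel and 0.174 for Axl.

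**Figure D5:**
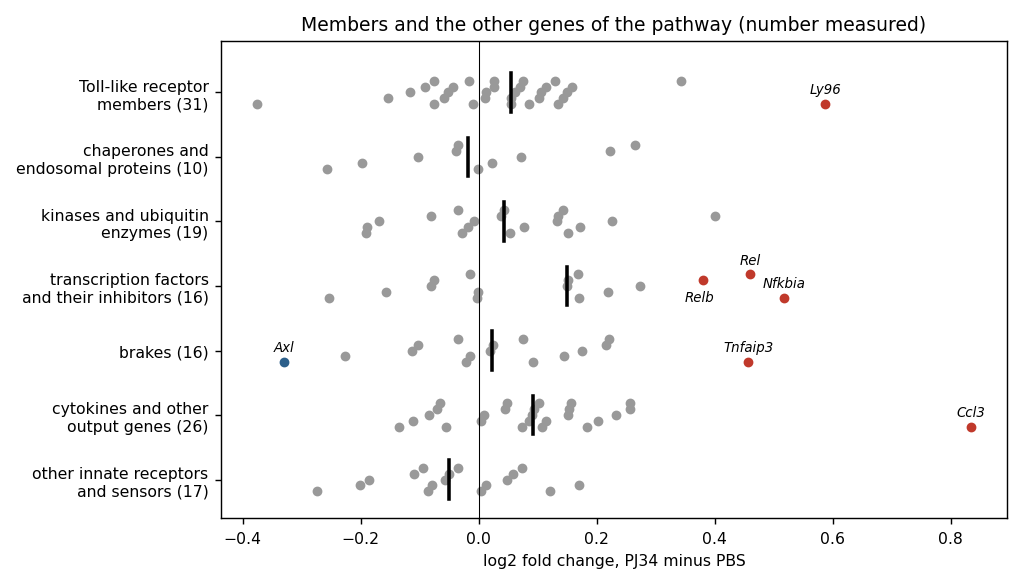
Change with PJ34 (horizontal axis, log2 fold change against PBS) of the 31 members and of the 104 other pathway genes, 1 row per group with the number measured. Named points passed limma at an adjusted p under 0.05, in red where PJ34 was higher and in blue where it was lower. Grey is used for all others, and a black bar marks each median. The median lies at 0.05 for the members and at 0.15 for the transcription factors and their inhibitors. The medians of the other pathway groups run from -0.05 (other innate receptors and sensors) to 0.09 (output genes).

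The promoters of Nfkbia, Rel and Tnfaip3 are shown because these genes rose and hold a match to the NF-kB motif, each window from 250 bases before to 50 bases after the start of the gene (RefSeq, GRCm38.p6, minus strand). Capitals mark matches to the NF-kB consensus, a 10 base motif searched on both strands. The windows are chr12:55492598-55492897 for Nfkbia, chr11:23770920-23771219 for Rel and chr10:19015361-19015660 for Tnfaip3.
Nfkbia: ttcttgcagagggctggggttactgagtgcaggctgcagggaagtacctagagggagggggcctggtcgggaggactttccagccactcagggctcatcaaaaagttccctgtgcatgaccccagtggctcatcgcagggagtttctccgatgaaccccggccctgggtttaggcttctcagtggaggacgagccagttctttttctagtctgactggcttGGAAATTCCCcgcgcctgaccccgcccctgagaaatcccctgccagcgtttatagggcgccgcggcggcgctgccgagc
Rel: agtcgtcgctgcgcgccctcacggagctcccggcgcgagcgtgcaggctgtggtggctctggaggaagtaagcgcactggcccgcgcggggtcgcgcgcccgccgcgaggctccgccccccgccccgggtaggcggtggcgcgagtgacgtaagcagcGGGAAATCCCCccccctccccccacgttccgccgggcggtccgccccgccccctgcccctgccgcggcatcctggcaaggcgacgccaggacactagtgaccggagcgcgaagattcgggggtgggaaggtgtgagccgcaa
Tnfaip3: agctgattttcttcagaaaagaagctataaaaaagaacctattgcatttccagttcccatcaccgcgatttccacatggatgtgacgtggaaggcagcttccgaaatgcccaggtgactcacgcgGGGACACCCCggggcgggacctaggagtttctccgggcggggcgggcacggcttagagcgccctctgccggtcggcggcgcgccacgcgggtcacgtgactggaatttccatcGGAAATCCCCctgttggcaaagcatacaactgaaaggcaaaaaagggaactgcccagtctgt
In Rel the capitals are overlapping matches. Of the 5 pathway genes that rose, 4 had a promoter in the table, and 3 of these held a match, Ccl3 being the one without. A match was found in 5.14% of 27025 genes with a promoter window of this length. The share among pathway genes that did not rise was not counted, so these matches cannot be tied to the change with PJ34. Of the 31 members, 22 had a promoter, and Tlr2, Tlr3 and Map3k7 held a match (13.6%). None of these 3 passed the test with PJ34. The promoters of Ly96, Sigirr, Cd14 and Tlr4 are not shown. The AP-1 motif TGANTCA, searched on both strands, lay in 2 of the 22 member promoters, those of Ikbke and Tlr9 (9.09%), and in 8.97% of all genes. Of the 4 promoters of pathway genes that rose, that of Tnfaip3 held it, and it is left in lower case above. A match is a run of letters and not a measured site.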

How the data were processed

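RNA of C1498 cells was measured on 6 Affymetrix Mouse Gene arrays, 3 with PJ34 and 3 with PBS, grouped by the labels. The authors deposited log2 expression values, which the submitters' processing notes credit to RMA in Affymetrix Expression Console 1.3.1, a method that corrects background, aligns the quantiles of the arrays and gives a value per probe set. RMA evens out any shift common to all genes, and compresses changes of dim probe sets. Values were used as deposited. The genome build is not given in the sources used here. The gene table assigns 1 gene to 21789 probe sets and several to 1621. These 23410 were fitted with limma 3.58.1 in R 4.3.3 (PJ34 minus PBS, moderated test, Benjamini-Hochberg over all 23410). The number of arrays limits the precision. Members and lists were chosen with earlier results of these data known. Values per array are given for genes at an unadjusted p under 0.05 or with the highest mean of their role, and for some others chosen after their values were seen: Tlr2, Tlr4, Ticam1, Ikbke, Nfkbia and Ccl3. Alternatives were a replicate block, median centring, an intensity trend with robust eBayes, a filter on dim probe sets, all probe sets, the methods' t-test and leaving out each array.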

Additional observations from a re-analysis of the deposited data

How the results depend on the processing

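The count of members that rose, 1 as reported, was 1 with median centring, with an intensity trend and robust eBayes, and without dim probe sets. It was 0 with the replicate block, with all 35556 probe sets in the fit and with the methods' t-test, where the adjusted p of Ly96 was 0.0658, 0.101 and 0.154. Leaving out 1 array gave 0 to 1. Without PJ34 replicate 2 the member that passed was Cd14, and Ly96 did not pass (adjusted p = 0.0631 from limma). No member fell as reported. Median centring, the intensity trend and the dim filter each gave 1, Sigirr. Leaving out 1 array gave 0. No paired design is stated. The deviations of same-numbered arrays correlated at -0.013, 0.131 and -0.0089, and those of differently numbered arrays at -0.147 to 0.145. The numbers were therefore not taken as pairs. Of other pathway genes, 5 rose and 1 fell as reported, against 3 and 0 with the replicate block, 4 and 1 with median centring, 10 and 5 with the intensity trend, 10 and 5 with the dim filter, 1 and 0 with all probe sets, 1 and 0 with the t-test, and 2 to 3 and 0 when 1 array was left out. Over all probe sets tested, 716 calls (402 higher and 314 lower) became 359 with the replicate block, 697 with median centring (332 higher and 365 lower, so that lower calls outnumbered higher ones), 1928 with the intensity trend, 1667 with the dim filter, 188 with all probe sets, 140 with the t-test (78 higher and 62 lower), and 222 (without PBS replicate 2) to 601 (without PJ34 replicate 2, 281 higher and 320 lower) when 1 array was left out. The dim filter fitted 12696 probe sets, 19 members among them; the cause of the other shifts was not tested. The members' median ran from 0.029 to 0.0634 when 1 array was left out, with the lowest value without PJ34 replicate 3. Signs of members near 0 turned. Median centring gave log2 fold changes of -0.0099 for Tlr3 and -0.0085 for Tlr6. Leaving out 1 array gave -0.0657 to 0.0733 for Tlr3, -0.0547 to 0.0889 for Tlr4, -0.0337 to 0.0634 for Tlr6, -0.186 to 0.0184 for Tlr9, -0.094 to 0.0285 for Tlr13, -0.0542 to 0.146 for Cd180, -0.129 to 0.0323 for Ly86, -0.0621 to 0.0477 for Ticam2 and -0.0121 to 0.105 for Irak2. No member has a further probe set of its own, so choosing the dimmest changed nothing. Of the 31 members, 11 lay within the olfactory receptor range, where an unknown share of the signal is background.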
